A study of Danio rerio with 6 samples.

Results

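The genes described here code the subunits of the ionotropic receptors for glutamate, GABA and glycine, the ligand-gated channels of fast synaptic transmission. They were taken by name from the table of RPKM values of whole zebrafish larvae, as every row whose symbol starts with *gria*, *grik*, *grin1* to *grin3*, *grid*, *gabr*, *glra* or *glrb*. Of the 32520 genes in the table, 57 matched, and 56 of them had a mean of at least 0.5 RPKM over the 6 libraries and were used, against 20435 genes used in all. RPKM gives the reads of a gene divided by its length in kilobases and by the depth of the library in units of 1e6 reads. The 56 genes were 8 AMPA, 4 kainate, 11 NMDA and 3 delta glutamate receptor subunits, 21 GABA-A subunits (7 alpha, 4 beta, 2 gamma, 5 rho, and *gabrd*, *gabrp* and *gabrz*), 5 glycine receptor alpha and 2 beta subunits, and 2 genes for scaffold proteins, which matched by name alone.

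RNA came from pools of 60 whole larvae at 4 dpf, 3 pools from *mgt* (maggot) and 3 from WT larvae, with no treatment. The labels name the AB strain for the WT pools, and the study states that its maggot alleles were held on the AB background for phenotypic analysis. The *mgt* larvae were homozygous for a chemically induced missense allele of *plod3*, which codes a lysyl hydroxylase and glycosyltransferase of collagen, and the labels call this genotype a *plod3* KO. The pools are labelled biological replicates and are called technical replicates in the legend of the study's volcano plot, so p-values here measure the spread between pools. All *mgt* pools carry batch number 2 and all WT pools carry batch number 1, so batch and genotype cannot be told apart, and ribosomal RNA was removed with either of a pair of kits, the kit of each pool not being given in the labels.

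Ionotropic receptors assemble from several subunits, and the subunits set what the channel binds and conducts. AMPA receptors carry most fast excitation, kainate receptors shape release and excitability, and NMDA receptors open only when glutamate and glycine or D-serine are bound and the membrane is depolarized. GABA-A and glycine receptors are chloride channels of the pentameric family, and glycine receptors are known above all from the hindbrain, the spinal cord and the retina. Zebrafish hold many of these genes as a and b copies that stem from a genome duplication in the ancestor of teleosts.

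The libraries were not equally alike. On the first principal component of all genes tested, which held 83.5% of the variance, WT replicate 1 lay at 0.53 of the way from the other WT libraries to the *mgt* mean. The depth was from 38.35 to 42.56 in units of 1e6 reads in *mgt* libraries and from 43.4 to 50.27 in WT libraries, so that 1 RPKM stands for 38.4 to 50.3 reads per kilobase. The targeted gene *plod3* was at 23.9, 24.3 and 24.4 RPKM in *mgt* pools and at 16.8, 15.3 and 14.2 RPKM in WT pools, a log2 fold change of 0.63 ± 0.096 (SE; limma, Benjamini-Hochberg adjusted p = 0.0044). As the allele replaces an amino acid and removes no part of the gene, this level does not check the genotype. Because of WT replicate 1, the counts over the 56 genes are given with and without it, and the main genes with their level in each library.

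The summed level of the 56 genes was 432, 430 and 449 RPKM in the *mgt* libraries, against 431, 90.4 and 142 RPKM in WT replicates 1, 2 and 3. The *mgt* pools lay close together, WT replicate 1 lay among them, and WT replicates 2 and 3 were far below. WT replicate 1 was above both other WT libraries in 55 of the 56 genes (98.2%, against 63.7% of all genes tested). All *mgt* libraries were above WT replicates 2 and 3 in 55 of the 56 genes as well (against 12261 of the 20435 genes tested). The exception was *glra4a* in both counts. The summed level of 34 neuron markers moved the same way, with 2275 to 2398 RPKM in *mgt* libraries, against 2338, 832 and 1027 RPKM in WT replicates 1, 2 and 3, and its part in the levels of the receptor genes was not tested.

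**Figure D1:**
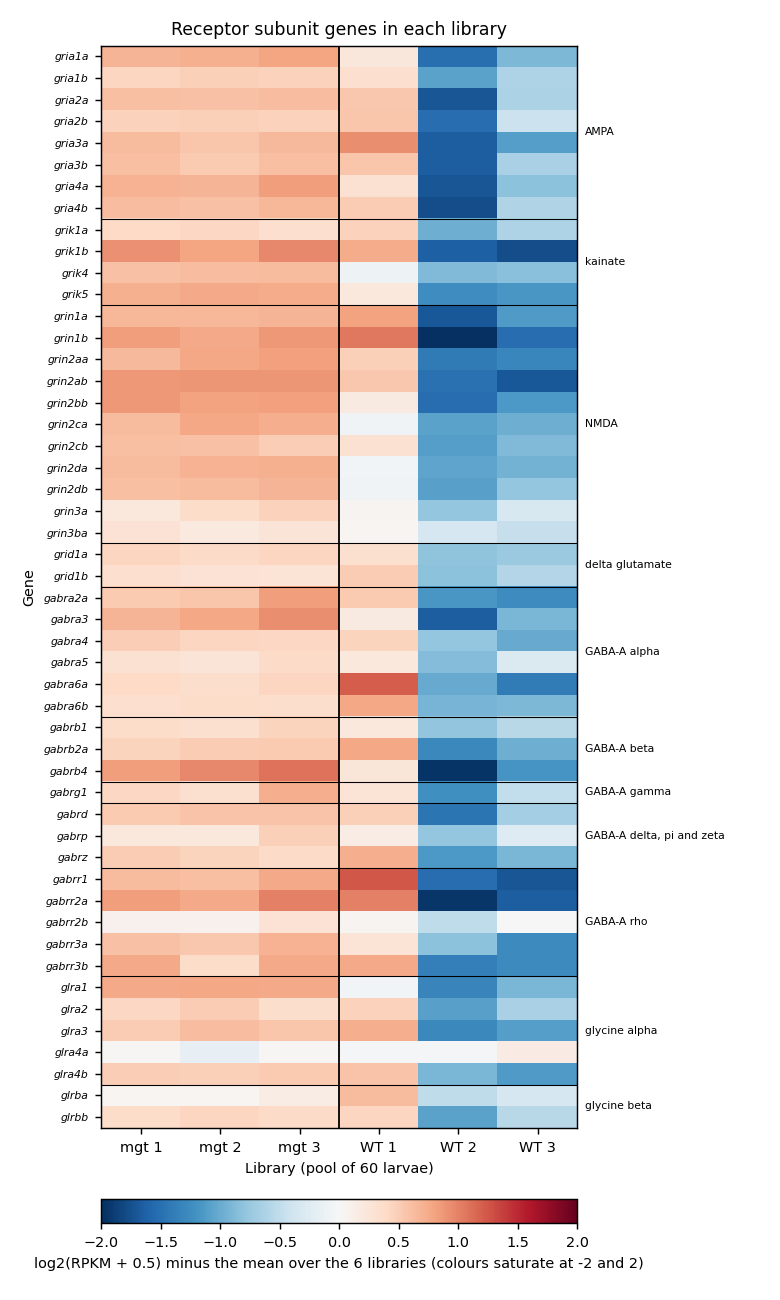
log2(RPKM + 0.5) of 50 of the 56 genes (rows, grouped by receptor family) in each library (columns, *mgt* then WT), minus the gene's mean over the 6 libraries. The *mgt* columns and WT replicate 1 are mostly above the mean and WT replicates 2 and 3 below it, with *glra4a* level across the row.

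With all 6 libraries, 22 of the 56 genes rose in *mgt* larvae and 0 fell, where a call needed an adjusted p below 0.05 from limma on log2(RPKM + 0.5) and, for a rise, a level at least 25% higher. This was 39.3% of the genes, beside 31.8% of all genes tested that were called higher and 15.6% that were called lower. The median log2 fold change was 1.18 over the 56 genes and 0.29 over all genes tested, with a range from -0.07 to 1.93, and it was above 0 in 55 genes. Of the 22 genes, 3 had a WT mean below 0.5 RPKM and were used only because of their *mgt* level. All 22 called genes had every *mgt* library above every WT library. In a further 12 genes the groups did not overlap and the call was not reached, which makes 34 genes (60.7%) with every *mgt* library above every WT library, beside 41.7% of all genes tested. In the remaining 22 genes WT replicate 1 lay within or above the range of the *mgt* libraries.

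The counts turned on the WT libraries. Against WT replicates 2 and 3, 54 of the 56 genes were called higher (96.4%, beside 52.0% of all genes higher and 18.2% lower), with a median log2 fold change of 1.64, against 0.39 over all genes. Against WT replicate 1 alone, 15 were called higher (26.8%, beside 26.1% of all genes) and 4 lower (beside 19.7% of all genes), with a median of 0.11, against 0.04 over all genes. That last comparison takes the spread from the *mgt* pools and assumes that the lone WT pool varies like them. All comparisons share the *mgt* libraries. RNA from whole larvae does not tell fewer cells of a type from less RNA per cell.

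With each library left out in turn, the count was 54 without WT replicate 1 and 5 without any of the other 5 libraries. The genes called in all 6 of these fits were *glra1*, *grik4*, *grin2ca*, *grin2da* and *grin2db*. The other 17 called genes were called in only 1 of the 6 fits, the one without WT replicate 1.

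**Figure D2:**
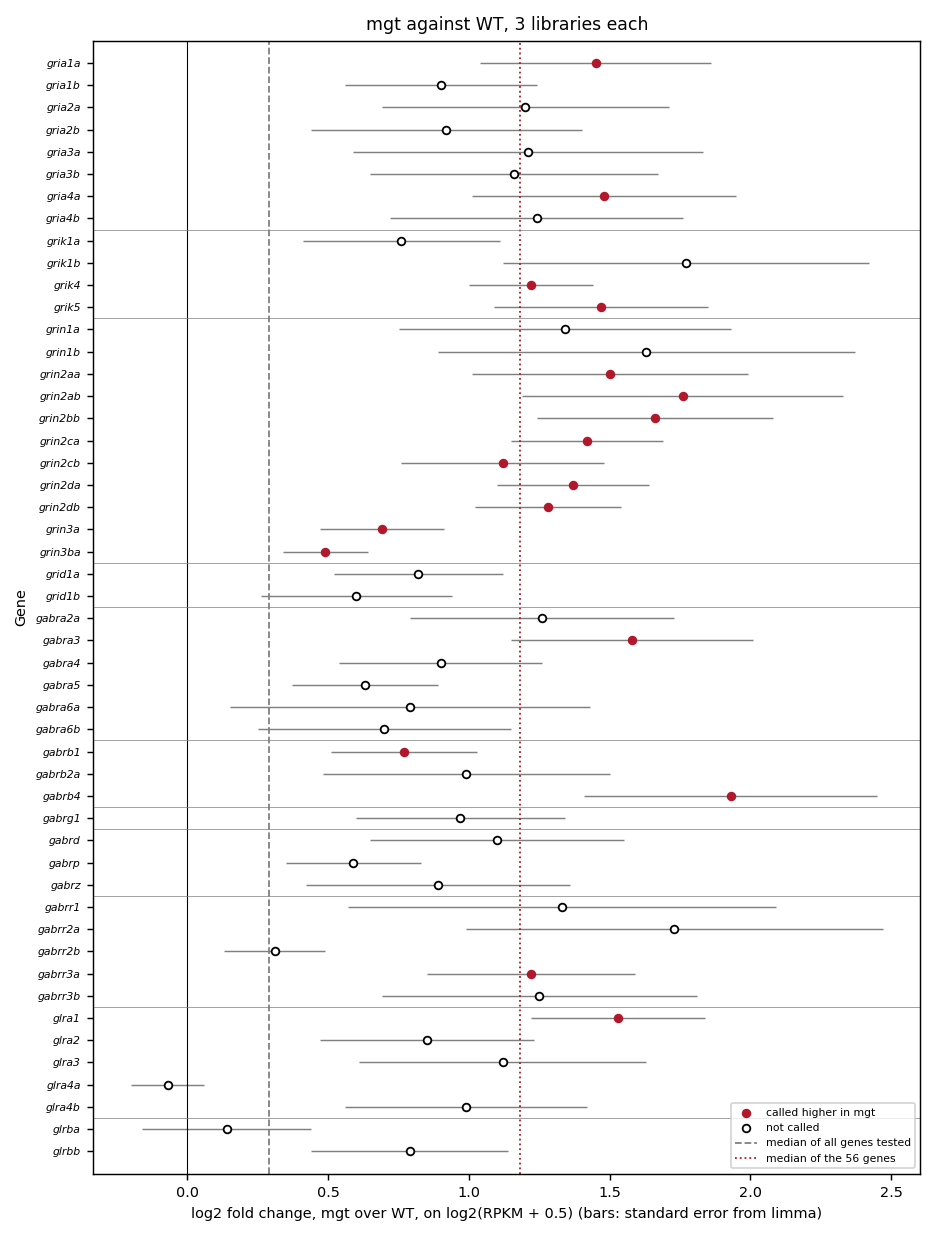
log2 fold change of 50 of the 56 genes, *mgt* over WT with 3 libraries each, on log2(RPKM + 0.5), with the standard error from limma as bars; filled points were called higher. All points but *glra4a* lie right of 0, most lie right of the median of all genes (0.29), and the bars are long where WT replicate 1 lies far from the other WT libraries.

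Of the 11 NMDA receptor genes, 9 were called higher with all 6 libraries (81.8%, beside 31.8% of all genes). Against WT replicate 1 alone 5 were called higher (45.5%, beside 26.1%), and once a trend of RPKM with gene span, described further on, was taken out, 4 were (36.4%, beside 28.4%). The *grin1* genes, which code the obligatory glycine-binding subunit, were the most abundant of all 56. *grin1b* was at 47.0, 44.3 and 47.8 RPKM in *mgt* libraries and at 54.8, 6.21 and 8.77 RPKM in WT replicates 1, 2 and 3. Thus WT replicate 1 was the highest library of all, and the other WT libraries were far below every *mgt* library. Its log2 fold change was 1.63 ± 0.74 (SE) and it was not called (adjusted p = 0.11). *grin1a* followed the same order, with 42.9, 42.9 and 43.4 RPKM in *mgt* libraries and 47.2, 7.99 and 11.97 RPKM in WT libraries, and was not called either.

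The *grin2* genes code the glutamate-binding subunits, which set the kinetics of the channel and its block by magnesium. All 7 of them were called higher in *mgt* larvae (100%, beside 31.8% of all genes), with log2 fold changes from 1.12 to 1.76. With the span trend removed, 4 of the 7 were (57.1%, beside 28.4% of all genes). In each of the 7, WT replicate 1 lay below every *mgt* library, as it did in 9483 of the 20435 genes tested. *grin2db*, whose mammalian counterpart gives slow currents and is abundant early in life, was at 4.08, 4.16 and 4.33 RPKM in *mgt* libraries and at 2.36, 0.92 and 1.26 RPKM in WT libraries. The groups did not overlap, and the log2 fold change was 1.28 ± 0.26 (SE; adjusted p = 0.010). *grin2da* had 2.17, 2.29 and 2.32 RPKM in *mgt* libraries, against 1.16, 0.33 and 0.39 RPKM in WT libraries. *grin2ca* had 2.55, 2.84 and 2.74 RPKM in *mgt* libraries, against 1.36, 0.43 and 0.50 RPKM in WT libraries. For these 3 genes WT replicate 1 lay well below *mgt*, by 0.71, 0.73 and 0.79 on the log2 scale for *grin2db*, *grin2da* and *grin2ca*.

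The highest fold changes of NMDA genes were those of *grin2ab* and *grin2bb*, which were not among the genes called in every leave-one-out fit. *grin2ab* was at 5.74, 5.84 and 5.83 RPKM in *mgt* libraries and at 4.47, 0.72 and 0.56 RPKM in WT libraries, a log2 fold change of 1.76 ± 0.57 (SE; adjusted p = 0.042, and 2.0e-06 to 0.13 with each library left out). *grin2bb* was at 4.94, 4.75 and 4.80 RPKM in *mgt* libraries and at 2.91, 0.54 and 0.85 RPKM in WT libraries, a log2 fold change of 1.66 ± 0.42 (SE; adjusted p = 0.021, and 6.4e-06 to 0.077 with each library left out). WT replicate 1 stood between the *mgt* pools and the other WT pools in both genes. The *grin3* genes code glycine-binding subunits that lower the calcium flow. *grin3a* was at 1.34, 1.55 and 1.69 RPKM in *mgt* libraries and at 1.16, 0.43 and 0.77 RPKM in WT libraries, a log2 fold change of 0.69 ± 0.22 (SE; adjusted p = 0.041, 0.0014 to 0.13 with each library left out, and 0.070 once the span trend was taken out). *grin3ba* was at 0.90, 0.81 and 0.86 RPKM in *mgt* libraries and at 0.68, 0.41 and 0.33 RPKM in WT libraries, and is one of the 3 genes used only because of their *mgt* level. Its call (adjusted p = 0.037) was lost with the span trend removed (0.67), with quantile normalization (0.19), with median-of-ratios factors (0.058) and without any library but WT replicate 1.

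The makeup of the family within each library follows from these levels and is given as a description. *grin2* genes took 22.1%, 23.1% and 22.4% of the summed NMDA RPKM in *mgt* libraries and 14.7%, 20.6% and 17.8% in WT libraries. Every *mgt* share was above every WT share, 22.5% ± 0.53 against 17.7% ± 3.0 (SD, n = 3 each), with the lowest share in WT replicate 1. Among the *grin2* genes themselves, the shares of *grin2a*, *grin2b*, *grin2c* and *grin2d* overlapped between genotypes.

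Of the 8 AMPA receptor genes 2 were called higher, *gria1a* and *gria4a* (25.0%, beside 31.8% of all genes), and 0 were with the span trend removed. *gria2a*, the most abundant, codes the subunit whose edited form makes AMPA receptors nearly impermeable to calcium. It was at 33.6, 33.5 and 34.2 RPKM in *mgt* libraries and at 32.4, 6.40 and 14.1 RPKM in WT libraries. WT replicate 1 lay just below the *mgt* pools and the other WT libraries far below, and the log2 fold change of 1.2 ± 0.51 (SE) was not called (adjusted p = 0.091). *gria4a* was at 8.93, 8.80 and 9.89 RPKM in *mgt* libraries and at 6.66, 1.27 and 2.78 RPKM in WT libraries, a log2 fold change of 1.48 ± 0.47 (SE; adjusted p = 0.039, and 1.5e-04 to 0.12 with each library left out). *gria1a* was at 6.20, 6.30 and 6.70 RPKM in *mgt* libraries and at 4.40, 0.97 and 1.73 RPKM in WT libraries. In *gria3a* the *mgt* libraries had 25.85 to 27.55 RPKM and were below WT replicate 1, at 33.7 RPKM.

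WT replicates 2 and 3 also differed from each other in the AMPA genes. All 8 were higher in WT replicate 3, with a median difference of 0.94 on the log2 scale, against 0.31 over the 56 genes and -0.05 over all genes tested. Within each library, the share of *gria4* in the summed AMPA RPKM was 20.6%, 20.6% and 21.3% in *mgt* libraries and 17.7%, 17.2% and 20.0% in WT libraries. These shares did not overlap, while those of *gria1*, *gria2* and *gria3* did.

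Of the 4 kainate receptor genes 2 were called higher (50.0%, beside 31.8% of all genes), *grik4* and *grik5*, which code the high-affinity subunits that form channels only together with a *grik1* to *grik3* subunit. The kainate rows *GRIK2* and *GRIK3*, whose symbols are in capitals, were not matched by name and are described at the end. Both were also called higher, with log2 fold changes of 1.58 and 1.28. *grik4* was at 2.27, 2.32 and 2.36 RPKM in *mgt* libraries and at 1.21, 0.50 and 0.53 RPKM in WT libraries. All WT libraries were below all *mgt* libraries, and the log2 fold change was 1.22 ± 0.22 (SE; adjusted p = 0.0077, and 9.3e-06 to 0.038 with each library left out). *grik5* was at 4.22, 4.35 and 4.28 RPKM in *mgt* libraries and at 2.81, 0.71 and 0.78 RPKM in WT libraries. *grik1b*, the most abundant kainate gene by mean, was at 4.58, 4.14 and 4.75 RPKM in *mgt* libraries and at 4.01, 0.37 and 0.29 RPKM in WT libraries. Its groups did not overlap, but WT replicate 1 lay so near the *mgt* pools that a log2 fold change of 1.77 ± 0.65 (SE) was not called (adjusted p = 0.060).

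The delta receptors bind synapse organizers of the cerebellin family. *grid1a* and *grid1b* were not called, and in *grid1b* the *mgt* libraries, at 2.02 to 2.12 RPKM, were below WT replicate 1, at 2.47 RPKM.

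GABA-A receptors usually combine alpha and beta subunits with a gamma or a delta subunit. Of the 21 genes, 5 were called higher (23.8%, beside 31.8% of all genes), among them *gabra3*, *gabrb1* (used only because of its *mgt* level), *gabrb4* and *gabrr3a*, and the median log2 fold change was 1.1. *gabrb4* had the highest fold change of all 56 genes. It was at 5.47, 6.02 and 6.60 RPKM in *mgt* libraries and at 3.43, 0.36 and 0.98 RPKM in WT libraries, a log2 fold change of 1.93 ± 0.52 (SE; adjusted p = 0.024, and 3.4e-05 to 0.085 with each library left out). WT replicate 1 was below all *mgt* pools. *gabra3* was at 5.16, 5.50 and 6.20 RPKM in *mgt* libraries and at 3.48, 0.63 and 1.38 RPKM in WT libraries.

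*gabrd*, the delta subunit of receptors outside synapses, had 10.2, 10.5 and 10.5 RPKM in *mgt* libraries and 9.92, 2.21 and 4.16 RPKM in WT libraries. In *gabrp*, the pi subunit, which mammals express mostly outside the nervous system, the groups were nearer to each other, with 9.24, 9.22 and 11.2 RPKM in *mgt* libraries and 8.89, 4.42 and 6.57 RPKM in WT libraries, and its log2 fold change was 0.59 ± 0.24 (SE; adjusted p = 0.081).

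In the *gabra6* genes and *gabrr1*, WT replicate 1 lay above every *mgt* library. They shared this with other receptor genes, 16 of the 56 in all, beside 8174 of the 20435 genes tested. *gabra6a*, a subunit that mammals express mainly in cerebellar granule cells, was at 3.65, 3.50 and 3.73 RPKM in *mgt* libraries and at 6.77, 1.06 and 0.69 RPKM in WT libraries. WT replicate 1 was thus well above the *mgt* level and the other WT libraries well below it. Cerebellar markers summed to 266 to 284 RPKM in *mgt* libraries and to 277, 152 and 172 RPKM in WT libraries, and their part in the *gabra6* genes was not tested. *gabra6b* had 1.23 to 1.27 RPKM in *mgt* libraries, 1.84 RPKM in WT replicate 1, and 0.22 and 0.24 RPKM in WT replicates 2 and 3. *gabrr1* codes a rho subunit, known from bipolar cells of the retina, and was at 4.46, 4.38 and 4.90 RPKM in *mgt* libraries and at 7.12, 0.61 and 0.48 RPKM in WT libraries. These 3 genes and *glrba* were the 4 genes called lower against WT replicate 1 alone, by 0.82, 0.42, 0.59 and 0.56 on the log2 scale for *gabra6a*, *gabra6b*, *gabrr1* and *glrba*.

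Of the 5 rho genes, *gabrr3a* rose, with 2.27, 2.17 and 2.46 RPKM in *mgt* libraries and 1.71, 0.54 and 0.26 RPKM in WT libraries (log2 fold change 1.22 ± 0.37, SE; adjusted p = 0.037, and 4.5e-05 to 0.11 with each library left out). *gabrr2a* was at 5.72, 5.41 and 6.53 RPKM in *mgt* libraries and at 6.51, 0.41 and 0.62 RPKM in WT libraries, and was not called (log2 fold change 1.73 ± 0.74, SE; adjusted p = 0.092). *gabrr2b* was at 0.70, 0.70 and 0.87 RPKM in *mgt* libraries and at 0.67, 0.29 and 0.62 RPKM in WT libraries. It is, with *glra4a*, the gene that was not called even against WT replicates 2 and 3. The retina markers moved beside these genes. Their summed level was 2704 to 2793 RPKM in *mgt* libraries, against 6400 RPKM in WT replicate 1 and 1610 and 1219 RPKM in WT replicates 2 and 3, with 0 of the 22 listed markers at 0 in every library, and their part in the rho genes was not tested.

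**Figure D3:**
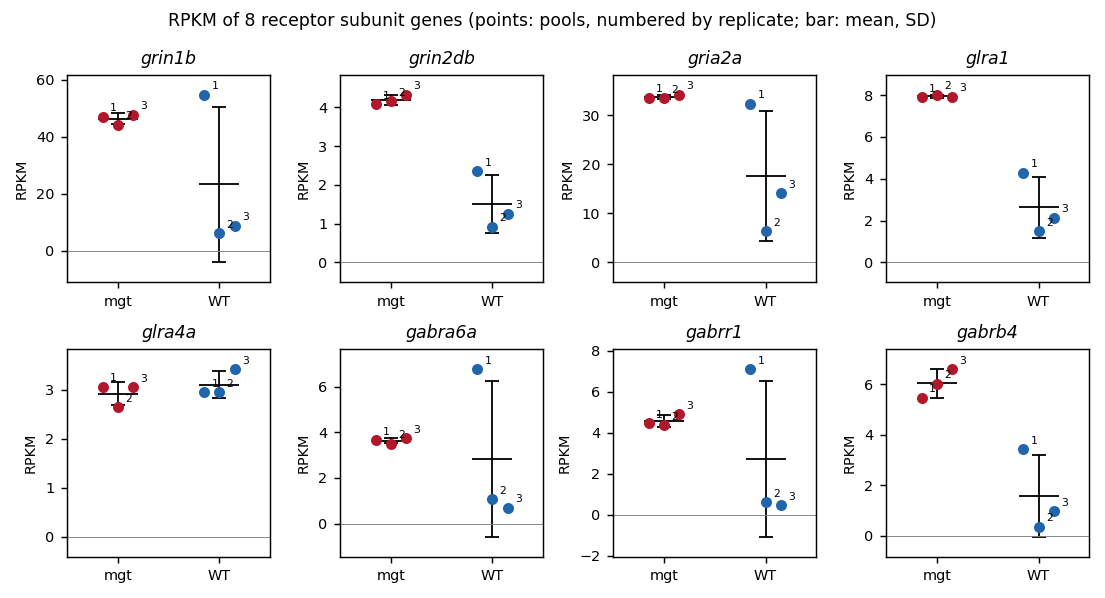
RPKM of 8 receptor subunit genes in each pool (points, numbered by replicate), *mgt* left and WT right, with the mean and SD of 3 pools. WT replicate 1 lies above *mgt* in *grin1b*, *gabra6a* and *gabrr1*, close to *mgt* in *gria2a*, and between *mgt* and the other WT pools in *grin2db*, *glra1* and *gabrb4*, and the groups overlap at about 3 RPKM in *glra4a*.

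Among the glycine receptor genes 1 of 7 was called higher (14.3%, beside 31.8% of all genes). *glra1*, which codes the main alpha subunit of glycinergic synapses of the brainstem and spinal cord, was at 7.89, 8.02 and 7.93 RPKM in *mgt* libraries and at 4.28, 1.49 and 2.13 RPKM in WT libraries. The WT libraries were all far below the *mgt* pools, and the log2 fold change was 1.53 ± 0.31 (SE; adjusted p = 0.011, and 1.0e-05 to 0.046 with each library left out). Against WT replicate 1 alone the difference was 0.82 on the log2 scale, the largest of the 56 genes. *glra4a* did not follow, with 3.07, 2.65 and 3.06 RPKM in *mgt* libraries and 2.95, 2.95 and 3.43 RPKM in WT libraries (log2 fold change -0.07 ± 0.13, SE; adjusted p = 0.64). It was the only gene of the 56 in which WT replicate 1 was not above both other WT libraries, and its fold change was 0.13 with the libraries scaled to the same summed RPKM. *glra2*, *glra3* and *glra4b* were not called, and WT replicate 1 lay within or above their *mgt* range.

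The beta subunit anchors glycine receptors to gephyrin. *glrbb*, the more abundant beta gene and the one disrupted in the zebrafish motor mutant bandoneon, was at 23.7, 24.8 and 23.9 RPKM in *mgt* libraries and at 24.8, 8.41 and 12.3 RPKM in WT libraries (log2 fold change 0.79 ± 0.35, SE; adjusted p = 0.10). *glrba* was at 3.20, 3.20 and 3.48 RPKM in *mgt* libraries and at 5.07, 2.04 and 2.37 RPKM in WT libraries. Its log2 fold change of 0.14 ± 0.30 (SE; adjusted p = 0.70) was below 0 under median-of-ratios and quantile scaling.

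The proportions of the glycine receptor alpha genes were compared within each library. *glra1* made up 39.7%, 39.9% and 39.8% of the summed *glra* RPKM in *mgt* libraries and 25.1%, 23.2% and 26.8% in WT libraries. Here WT replicate 1 lay among the WT libraries and not with *mgt*, and the means were 39.8% ± 0.087 and 25.0% ± 1.8 (SD, n = 3 each; exact permutation test, two-sided p = 0.10, the least possible with 3 against 3, and 0.33 adjusted over the 20 shares compared). The *glra4* genes made up 26.2% ± 1.5 in *mgt* libraries and 44.9% ± 12 in WT libraries (SD, n = 3 each), with no overlap and the lowest WT share, 31.6%, in replicate 1. The shares of *glra2* and *glra3* overlapped. Shares do not depend on the scaling of a library, but they depend on every gene in the sum. The summed *glra* RPKM was 17.1, 6.41 and 7.96 in WT replicates 1, 2 and 3. The level gene *glra4a* held 2.95, 2.95 and 3.43 RPKM of it. The likeness of the *glra1* share across WT libraries, and its lack of overlap with *mgt*, thus depend on *glra4a*. In WT replicate 3, *glra1* was at 2.13 RPKM, beside 1.11, 0.88 and 0.41 RPKM for *glra2*, *glra3* and *glra4b*. With *glra4a* left out of the sum, the *glra1* shares of the genotypes overlap and the lowest share is that of WT replicate 1. Those shares were not tested.

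**Figure D4:**
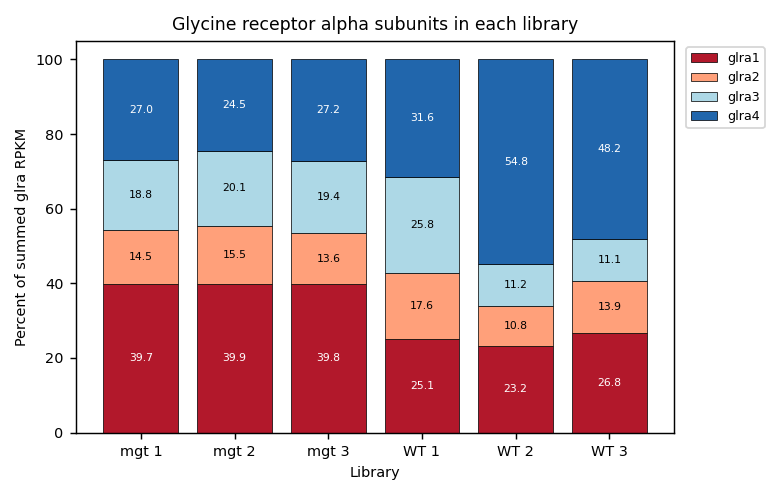
Percent of the summed RPKM of the glycine receptor alpha genes that each type took in each library, *mgt* then WT, with *glra4a* and *glra4b* added together. *glra1* takes 39.7% to 39.9% in the *mgt* libraries and 23.2% to 26.8% in the WT libraries, and *glra4* takes more in each WT library than in any *mgt* library. With the level gene *glra4a* left out of the sum, the *glra1* shares of the genotypes overlap.

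Of the 20 shares compared in the AMPA, NMDA, GABA-A and glycine alpha families, 6 did not overlap between genotypes. Besides *grin2*, *gria4*, *glra1* and *glra4* they were the GABA-A beta genes, with 21.2% ± 0.55 of the summed GABA-A RPKM in *mgt* libraries and 17.7% ± 1.8 in WT libraries, and the gamma genes, with 12.9% ± 0.20 and 11.5% ± 1.0 (SD, n = 3 each). All 6 had p = 0.10 in the exact permutation test, and 0.33 when adjusted over the 20 shares. As 0.10 is the least possible with 3 against 3, no share could have passed, and the test does not decide. The shares of alpha, of rho, and of *gabrd*, *gabrp* and *gabrz* together overlapped.

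Set side by side, the difference of *mgt* from each WT library was not alike. The median over the 56 genes was 0.11 from WT replicate 1, 1.79 from WT replicate 2 and 1.46 from WT replicate 3 on the log2 scale, and the difference of WT replicate 1 from the mean of the other WT libraries was 1.44 (0.28 over all genes tested). WT replicate 1 was above every *mgt* library in 16 genes, within their range in 6 and below all of them in 34. Over all 20435 genes tested these counts were 8174, 2778 and 9483. WT replicate 1 was thus within or above the *mgt* range in 39.3% of the 56 genes, beside 53.6% of all genes tested. By family, the median difference from WT replicate 1 was 0.64 for the *grin2* genes, 0.34 for kainate genes, 0.19 for GABA-A beta genes and 0.09 for AMPA genes. It was below 0 for *grin1* genes (-0.19), rho genes (-0.14), glycine alpha genes (-0.04) and glycine beta genes (-0.30).

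**Figure D5:**
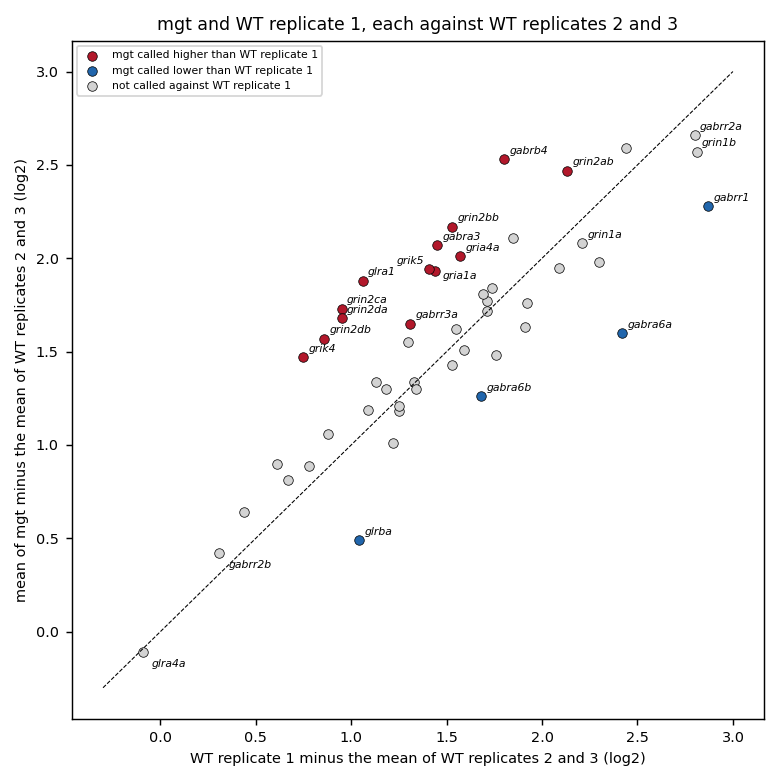
50 of the 56 genes by the log2 difference of WT replicate 1 (x axis) and of the *mgt* mean (y axis) from the mean of WT replicates 2 and 3. Both axes share those libraries, so a slope is built in, and the reading is the height over the dashed line of equality, which is *mgt* minus WT replicate 1, with 13 of the genes drawn called above it and 4 called below it.

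Other genes of these synapses were described from lists made up by function. Of the 22 genes for auxiliary subunits of AMPA and kainate receptors, 11 rose (50.0%, beside 31.8% of all genes higher) and 0 fell, with a median log2 fold change of 1.09, and 27.3% were called higher against WT replicate 1 alone, beside 26.1% of all genes. The most abundant was *shisa7b*, at 14.1, 14.0 and 14.5 RPKM in *mgt* libraries and 9.37, 1.69 and 2.66 RPKM in WT libraries. Of 36 genes for excitatory postsynaptic scaffolds 20 rose (55.6%, and 41.7% against WT replicate 1 alone) and 1 fell. *dlg4a*, which codes PSD-95, was at 4.24, 4.19 and 4.90 RPKM in *mgt* libraries and at 1.55, 0.29 and 0.57 RPKM in WT libraries (log2 fold change 2.04 ± 0.34, SE; adjusted p = 0.0057). That was the highest fold change of the list. In *mgt* libraries a more abundant row, *dlg4b*, was at 22.04, 23.04 and 23.56 RPKM. In WT libraries it was at 20.37, 3.62 and 6.71 RPKM, and it was not called (log2 fold change 1.45, limma adjusted p = 0.063). Another row named *dlg4b* was not called either, and in that row WT replicate 1, at 10.24 RPKM, was above every *mgt* library. The gene that fell was *homer2*, which also has roles in muscle, with 44.6, 43.5 and 40.5 RPKM in *mgt* libraries and 66.2, 60.0 and 64.8 RPKM in WT libraries. There WT replicate 1 lay with the other WT libraries.

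Of 15 genes for inhibitory scaffolds 8 rose (53.3%, and 40.0% against WT replicate 1 alone) and 0 fell, with a median of 1.29. Of 15 metabotropic glutamate and GABA receptor genes 5 rose and 0 fell (median 1.07), and this share of 33.3% was near the 31.8% of all genes, as was the 26.7% against WT replicate 1 alone to 26.1%. *gabbr1b*, a subunit of the metabotropic GABA receptor, was at 11.4, 12.01 and 12.4 RPKM in *mgt* libraries and at 10.3, 2.20 and 3.50 RPKM in WT libraries and was not called. Other genes of that receptor, *gabbr1a* and *gabbr2*, were called higher, with log2 fold changes of 0.95 and 1.31 (limma, adjusted p = 0.014 and 0.031). The WT mean of *gabbr1a* was only 0.287 RPKM. Of 35 genes for the synthesis and transport of the transmitters 12 rose (34.3%, near the share of all genes, and 31.4% against WT replicate 1 alone) and 5 fell (median 1.04). *slc1a2b*, a glial glutamate transporter, was at 147, 134 and 154 RPKM in *mgt* libraries and at 84.8, 18.7 and 25.4 RPKM in WT libraries (log2 fold change 2.06 ± 0.52, SE; adjusted p = 0.021). *amt*, part of the glycine cleavage system, was at 9.67, 9.5 and 10.7 RPKM in *mgt* libraries and at 20.3, 29.1 and 22.7 RPKM in WT libraries, and fell by 1.22 on the log2 scale (SE 0.15; adjusted p = 0.0021). Other genes of that system did not fall with it. *gldc* rose (log2 fold change 1.58 ± 0.17, SE; limma, adjusted p = 0.0014), and *gcshb* was not called (-0.33 ± 0.19, SE; adjusted p = 0.17). The summed levels of these lists again had WT replicate 1 nearest to *mgt*. The inhibitory scaffolds, for example, summed to 110 to 112 RPKM in *mgt* libraries, against 90.6, 23.5 and 31.8 RPKM in WT libraries.

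Markers of cell types that could carry these genes were counted in the same way. Of 34 neuron markers 15 rose (44.1%, beside 31.8% of all genes) and 1 fell, and of 15 spinal and motor neuron markers 11 rose (73.3%) and 0 fell. Glia markers had 6 higher (40.0%) and 3 lower of 15 and a median log2 fold change of 0.25, against 0.29 over all genes. The shares of cerebellar markers (4 of 16, 25.0%, with 3 lower) and of retina markers (5 of 21, 23.8%, with 1 lower) were below that of all genes. Against WT replicate 1 alone, the median log2 difference was -0.68 for retina markers and -0.13 for cerebellar markers. It was 0.04 for neuron markers, 0.45 for spinal and motor neuron markers and 0.05 for glia markers, beside 0.04 over all genes. *elavl4*, an RNA-binding protein of neurons and the neuron marker with the highest fold change, was at 66.5, 65.2 and 67.6 RPKM in *mgt* libraries and at 35.5, 9.12 and 10.4 RPKM in WT libraries. The most abundant neuron marker, *sncb*, was at 392, 401 and 413 RPKM in *mgt* libraries. It was at 398, 111 and 182 RPKM in WT libraries and was not called (limma, adjusted p = 0.089). The neuron marker that fell was *nefla* (log2 fold change -0.57, limma, adjusted p = 0.028). Outside the nervous system, the summed level of 20 skeletal muscle markers was 39569 to 40591 RPKM in *mgt* libraries, against 39207, 55296 and 66415 RPKM in WT libraries. Of these markers 1 was called higher, *ryr1b*, 4 were called lower and 15 were not called, beside 31.8% of all genes higher and 15.6% lower. The log2 fold change was above 0 in 4 of the 20, so the sum does not speak for every marker. All 15 exocrine pancreas markers fell, with 582 to 624 RPKM in *mgt* libraries and 5969, 8917 and 8211 RPKM in WT libraries, so that for these WT replicate 1 was nearer to the other WT libraries than to *mgt*. The part of any of these cell types in the receptor genes was not tested.

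The receptor genes are long, and the fold change moved with length. Their median span was 76.2 kb, against 16.4 kb over all genes tested, and across genes the Spearman correlation of log2 fold change with span was 0.34 over the 56 genes and 0.32 over all 20435, which share the same 6 libraries. With each library's trend with span removed, 11 of the 56 genes were called higher (19.6%, beside 28.4% of all genes higher and 15.1% lower), and their median log2 fold change was 0.74. The calls without the trend included *glra1*, *grik4*, *grin2ca*, *grin2da* and *grin2db*.

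Several of the genes are neighbours in the genome (GRCz11). *gria2a* and *glrba* lie next to each other on chromosome 1 from 21333068 to 21483832, with log2 fold changes of 1.2 and 0.14, and *glrbb* and *gria2b* on chromosome 14 from 35691889 to 35813662, with 0.79 and 0.92. *gabra6a* and *gabrb2a* are 3.26 kb apart on chromosome 14 (22152060 to 22273847), with 0.79 and 0.99, and *gabrr1* and *gabrr2b* are 7.13 kb apart on chromosome 20 (1132092 to 1176631), with 1.33 and 0.31. The values of *glrba* and *gabrr2b* were well below those of their neighbours, and none of these 8 genes was called. In all, 8 of the 56 genes overlap another gene that was used, among them *gria4a*, *gria4b*, *grin2aa* and *gabra6a*. *gabra6a*, with a mean of 3.23 RPKM, overlaps *nudcd2*, with a mean of 16.0 RPKM. Both *glrbb* and *gria2b* overlap *pdgfc*, with a mean of 5.97 RPKM. Since no source used here says that strand was counted, reads of such genes may not have been told apart.

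At the lower limit of RPKM, the gene just inside had a mean of 0.533 RPKM, and *grin3bb*, another *grin3* gene, was just outside with 0.352 RPKM. *grin3bb* was at 0.55, 0.45 and 0.45 RPKM in *mgt* libraries and at 0.35, 0.18 and 0.13 RPKM in WT libraries. Of the genes that were used, 3 had a WT mean below 0.5 RPKM and passed through their *mgt* level, among them *grin3ba* and *gabrb1*.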

How the data were processed

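RNA-seq of 3 *mgt* and 3 WT pools of 60 larvae was analysed. Per the labels and methods, the authors used cutadapt 5.2 for trimming, STAR for alignment to GRCz11 and HTSeq for counts per gene, and deposited RPKM rounded to 2 decimals. The gene length behind RPKM is not given in the sources used here and is not the gene span. The deposited means, SDs and *mgt* to WT ratio of the authors were not used as results. In all 32520 genes their WT mean is that of WT replicates 2 and 3 alone.

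Depth came from genes spanning at most 160 bases, whose values lie on steps of single reads in 98.4% to 99.7% of cases. Low genes are the least precise. Values were log2(RPKM + 0.5), fold changes are on that scale and understate those of low genes, and genes with a mean of at least 0.5 RPKM were tested with lmFit and eBayes (with trend) of limma 3.58.1 (R 4.3.3), p-values being adjusted by Benjamini-Hochberg over 20435 genes. RPKM are not counts, so no count model was used. Shares within families were compared by exact permutation tests. Samples were grouped by the genotype in the labels. The column of WT replicate 3 is the one its label names, though the library number in that label differs from the column's.

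The members and lists were chosen with earlier results of these data known. Full statistics were given for the most abundant member of each family and the 5 highest and 5 lowest fold changes; some genes are not reported here by name or drawn, and others were named freely, and of the function and marker lists the most abundant gene and the extremes. Alternatives were other pseudocounts, filters, scalings, thresholds and variance models, removal of the trend with gene span (lowess, span 0.3), the replicate number as a block, and leaving out each replicate. Those against WT replicate 1 alone, without the scaffold genes, and ignoring the case of symbols were added with the data already seen (chosen after seeing the data). The fit was also run on simulated libraries with known changes, built from the gene means and variances of the real data. Tables and plots used Python 3.11.15, numpy 2.4.6, pandas 2.3.3 and matplotlib 3.10.9.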

Additional observations from a re-analysis of the deposited data

How the results depend on the processing

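Of the 56 genes, 22 were called with the settings of the report. The number was 18 to 31 under the other scalings, 15 without a filter (of 57), and 19 to 22 with other pseudocounts, a filter at a mean of 1 RPKM (of 52 genes) and other variance models. It was 11 with the trend with gene span removed and 14 with the fold threshold read as a log2 value, where 2174 genes in all and 34 of the 121 genes of the function lists were called, against 9688 and 60. Leaving out each replicate in turn gave 5 to 54 of the 56 genes, 4074 to 14350 genes in all and 12 to 114 of the 121, highest each time without WT replicate 1, and fewer samples in a fit lower its power. Against WT replicate 1 alone the median over the 56 genes was 0.11 in place of 1.18. Calls were higher in *mgt* in 67.0% of cases as reported, 48.7% with median-of-ratios factors, 46.7% with quantile normalization and 82.3% with equal sums, and the median over all genes moved from 0.29 to 0.02, -0.00 and 0.49.

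The log2 fold change of *glrba* turned to -0.12 with median-of-ratios factors, -0.27 with quantile normalization, -0.18 with the span trend removed, -0.08 without WT replicate 2 and -0.56 against WT replicate 1 alone, and that of *glra4a* to 0.13 with equal sums. Against WT replicate 1 alone, *grin1b* was at -0.24, *glrbb* at -0.04 and *gabrr2a* at -0.14. The cause was not tested. Same-numbered pools did not deviate together (correlations of -0.03, 0.03 and 0.03, beside -0.12 to 0.08 for pools of different numbers). With 3 pools per genotype and WT replicate 1 apart, this does not settle whether pools were paired. With the replicate block 19 of the 56 genes and 8121 in all were called. Depth limits the genes near 0.5 RPKM most.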

Other observations

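The table also holds 5 receptor subunit rows whose symbols are in capitals, which the name rule left out; they were added after their values were seen. All 5 passed the filter and 4 were called higher in *mgt* larvae (limma), beside 31.8% of all genes tested. *GRIK2*, a kainate receptor subunit, was at 2.59, 3.00 and 2.85 RPKM in *mgt* libraries and at 1.26, 0.32 and 0.44 RPKM in WT libraries (log2 fold change 1.58 ± 0.29, SE; adjusted p = 0.0077). *GRIN2B* was at 4.05, 4.21 and 4.04 RPKM in *mgt* libraries and at 2.08, 0.52 and 0.82 RPKM in WT libraries (log2 fold change 1.60 ± 0.33, SE; adjusted p = 0.011). In both, and in *GRIK3* and *GABRB2*, WT replicate 1 lay below every *mgt* library. It did so in the 7 *grin2* genes of the report as well, and in 9483 of the 20435 genes tested. *GRIK3* had a log2 fold change of 1.28 and *GABRB2* of 1.27. *GABRR1*, a second rho gene of that name and annotated as rho-1-like, was not called, with 9.19, 7.72 and 7.87 RPKM in *mgt* libraries and 7.75, 1.84 and 1.99 RPKM in WT libraries. With these 5 rows added to the 56 genes, 26 genes were called, and the median log2 fold change over the enlarged set was 1.22.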
